A study of Homo sapiens with 6 samples.

Results

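Chemokines are small secreted proteins that draw leukocytes along a gradient, acting through G protein-coupled receptors on the responding cell. In epithelial cells many chemokine genes are switched on by the transcription factor NF-kB, and genes for ligands of the receptor CXCR3 also by interferon through STAT and IRF proteins. CCRL2 is an atypical receptor that binds chemerin and holds it at the cell surface without the usual signalling. The genes described here are CCRL2 and 9 chemokine genes, namely CCL5, CCL20, CXCL1, CXCL2, CXCL3, CXCL8, CXCL10, CXCL11 and CXCL16. They were taken by symbol from the 62700 gene IDs of the deposited count table, and all 10 were found.

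The libraries came from KYSE510, an established squamous carcinoma line of the oesophagus, kept in serum-containing medium. The shControl group (genotype WT in the labels) held 3 libraries of cells with a control shRNA. The shRNH1 group (RNH1 knockdown) held 3 libraries of cells with an shRNA against the ribonuclease that the labels call RNH1, as a model of induced R-loops, hybrids of RNA with 1 DNA strand that leave the other strand single. The sources used here do not give whether the knockdown cells were a clone or a pool. Poly(A) RNA was sequenced, library totals ran from 31394687 to 41103220 counts, and the shRNH1 totals were all below the shControl totals. RNASEH1, the RNase H gene, stood at 22.6% of its control level in shRNH1 cells (log2 fold change -2.14, adjusted p = 1.61e-13 by edgeR's quasi-likelihood test). The gene with the approved symbol RNH1, the ribonuclease inhibitor, did not pass that test (-0.19, adjusted p = 0.221).

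Squamous epithelial markers were detected in both groups, and of 10, all tested, 3 rose and 4 fell. Over all genes tested, 15.3% rose and 12.3% fell, which also applies to the marker counts below. PKP1, 1 of the 3 that rose, was abundant enough to be tested through the shRNH1 libraries alone. It had 2, 1 and 0 counts in shControl and 10, 21 and 16 in shRNH1. The keratin genes KRT6A (log2 fold change -2.13), KRT14 (-1.40) and KRT5 (-1.33) fell, while SOX2 (2.68) rose. The squamous factor gene TP63 measured 53.2 ± 3.64 CPM (counts scaled to the library total after TMM adjustment) in shControl against 52.5 ± 4.38 CPM with the knockdown, and keratin KRT5 30.9 ± 2.63 and 12.3 ± 0.248 CPM (mean ± SD of 3 libraries). Of 14 leukocyte markers, 4 were abundant enough to be tested, 1 rose (ITGAM) and 1 fell (LCP1), and MS4A1 and FCGR3A were listed at 0. ITGAM was abundant enough through the shRNH1 libraries alone (4, 7 and 7 counts in shControl, 24, 24 and 29 in shRNH1), so its rise is given as counted only. The summed level of the leukocyte markers was 14.5 to 17.5 CPM in shControl and 10.3 to 12.1 CPM in shRNH1. Within it the mean of LCP1 went from 8.79 to 2.04 CPM. The means of the other tested markers, CSF1R (5.91 to 7.02 CPM), CD14 (0.431 to 0.639 CPM) and ITGAM, were higher in shRNH1. CSF1R and CD14 did not pass, and the lower sum does not describe the markers as a group. Among 11 fibroblast markers 2 rose and 2 fell, COL1A2, DCN and FAP were listed at 0, and the sum was 322 to 360 CPM in shControl and 512 to 572 CPM in shRNH1. Most of this sum came from the 2 that rose, FBLN1 (mean 241 to 418 CPM) and COL1A1 (62.5 to 123 CPM). MFAP5 (27.5 to 6.66 CPM) and PDGFRB (3.44 to 1.83 CPM) fell. Among 9 endothelial markers 3 rose, KDR was listed at 0, and the sum was 248 to 296 CPM in shControl and 314 to 359 CPM in shRNH1. Most of this sum came from 1 gene, EGFL7 (mean 242 to 310 CPM). ESAM and PECAM1 also rose, while CDH5, CLDN5 and VWF had lower means in shRNH1 and did not pass. The part of these markers in the results below was not tested. In bulk RNA, fewer cells that express a gene and less RNA per cell cannot be told apart.

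Upstream sequence is shown first, because the genes lie in families with shared control elements. The RefSeq table on GRCh38.p14 matched 8 of the 10 genes in 9 start sites (CCRL2 had more than 1). It held no entry for CCL5 and CXCL16, so these genes were not searched for motifs. In the 250 bases before each start, matches on both strands were sought to the kappaB consensus bound by NF-kB, to the core of the interferon-stimulated response element (GAAA, 2 bases of any kind, GAAA), to the AP-1 site (TGANTCA) and to the GAS element bound by STAT dimers (TTCNNNGAA). Over all 35116 windows of this length, 5.21% held a kappaB match, 3.02% the response element core, 6.57% an AP-1 site and 6.57% a GAS element. The following 30-base stretches, 5′ to 3′ on the strand of the gene, centre on the kappaB matches, which are in capitals.
CXCL1 (chr4:73869304-73869333, plus strand): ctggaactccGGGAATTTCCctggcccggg
CXCL2 (chr4:74099254-74099283, minus strand): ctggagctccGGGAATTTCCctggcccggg
CXCL3 (chr4:74038749-74038778, minus strand): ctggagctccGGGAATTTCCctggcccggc
CXCL10 (chr4:76023655-76023684, minus strand): gaggagcagaGGGAAATTCCgtaacttgga
CXCL10 (chr4:76023600-76023629, minus strand): tctgcaacatGGGACTTCCCcaggaacagc
CXCL11 (chr4:76036127-76036156, minus strand): gactcaaagaGGGAAATTCCtgtgccataa
CCL20 (chr2:227813753-227813782, plus strand): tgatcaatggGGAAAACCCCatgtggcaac

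CXCL1, CXCL2 and CXCL3 carried the same 10 letters at nearly the same place, beginning 79, 78 and 79 bases before the RefSeq start. In each, a second match overlapped the first by all but 1 base. The gene positions given below come from the GENCODE annotation, whose starts can differ from those of RefSeq. The kappaB matches of CXCL2, CXCL3, CXCL11 and CCL20 lie inside those gene spans, so they are upstream of the RefSeq start only. Those of CXCL1 and CXCL10 lie outside the spans. Over the 250 bases CXCL1 was 70.4% identical to CXCL2 and 81.4% identical to CXCL3, and CXCL2 was 73.3% identical to CXCL3. CXCL10 and CXCL11, neighbours on chromosome 4, shared the 10 letters of 1 match but only 43.9% of the window. CXCL11 also held an AP-1 site and a GAS element, and CXCL8 held an AP-1 site and no kappaB match in these letters. Of the members with a window, CXCL10 was the one with a match to the response element core, and its whole window is shown with that core (the first stretch of capitals) and both kappaB matches in capitals.
CXCL10 (chr4:76023498-76023747, minus strand): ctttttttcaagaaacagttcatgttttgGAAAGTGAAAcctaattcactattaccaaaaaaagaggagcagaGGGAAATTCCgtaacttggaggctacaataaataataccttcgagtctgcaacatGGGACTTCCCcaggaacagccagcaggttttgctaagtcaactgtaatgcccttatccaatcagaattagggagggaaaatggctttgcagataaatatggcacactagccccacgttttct

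Neither CCRL2 window held a match to any of the motifs. A match describes letters and does not show that a factor binds, and the lack of a match does not show that a site is absent.

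The members that passed the test differed between shRNH1 and shControl cells in both directions. CCL5, CXCL11 and CXCL16 rose, CCRL2 and CXCL2 fell, and CXCL3 did not pass the test. CXCL1 was listed at 0 in every library, and CXCL8, CXCL10 and CCL20 had too few counts to be tested. In edgeR's quasi-likelihood test over 19682 genes with Benjamini-Hochberg adjustment and a threshold of 0.05, 5 of the 10 members therefore passed, 3 higher and 2 lower. Over all genes tested 27.6% passed, 15.3% higher and 12.3% lower, and the median log2 fold change was 0.016 over all genes and 0.00095 over the 6 tested members. The 4 that were not tested fell below the minimum for low counts, so no share over the tested members is drawn. Each of the 6 tested members met that minimum in all 3 libraries of both groups.

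**Figure D1:**
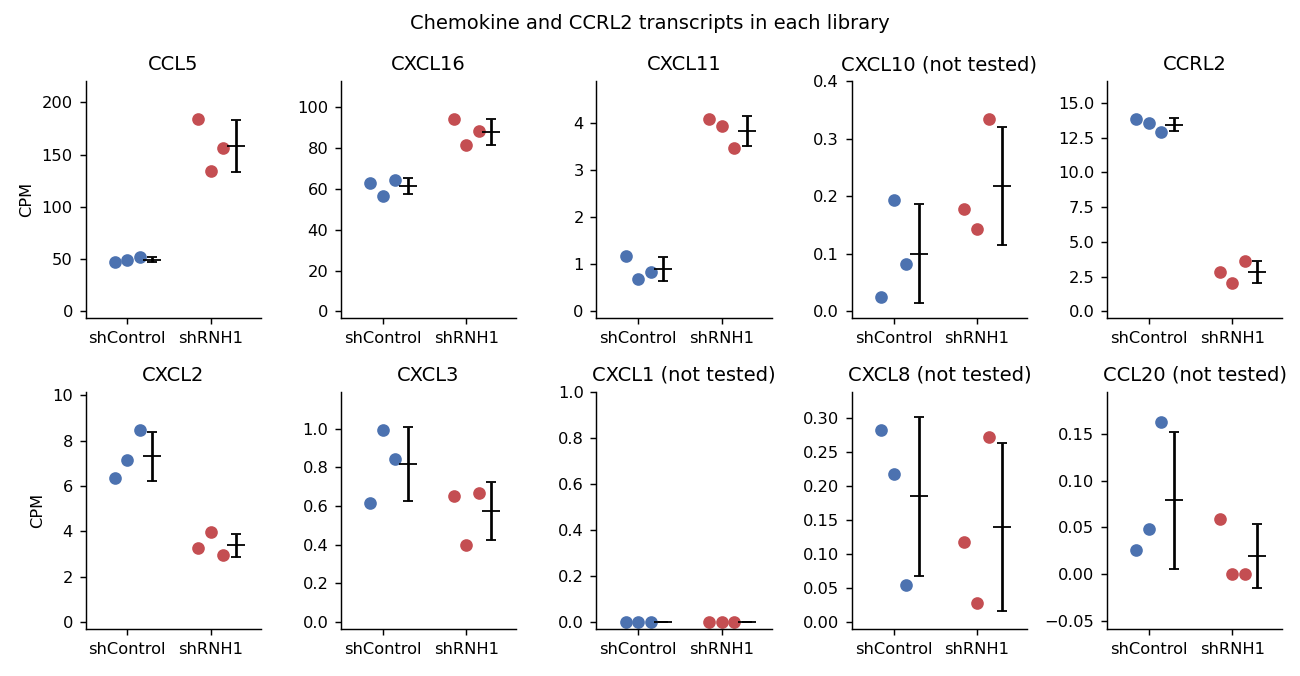
Level of each of the 10 genes in CPM (linear axis, own scale per gene) in the 3 shControl (blue) and 3 shRNH1 (red) libraries, with the mean and SD of each group in black. CCL5, CXCL16 and CXCL11 lie higher and CCRL2 and CXCL2 lower in all 3 shRNH1 libraries, CXCL3, CXCL10, CXCL8 and CCL20 overlap, and CXCL1 is at 0.

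CCL5 (RANTES; ENSG00000271503; GRCh38 chromosome 17, 35871491 to 35880793, minus strand) attracts T cells and monocytes. Its level was 47.1, 48.8 and 52.0 CPM in the shControl libraries and 184, 134 and 156 CPM in the shRNH1 libraries. Every shRNH1 library lay far above every shControl library, and the spread was larger among the shRNH1 libraries (SD 25.0 against 2.48 CPM). The log2 fold change was 1.68 (SE 0.106), or 3.20-fold with a 95% interval of 2.75 to 3.72 (adjusted p = 3.44e-12, edgeR's quasi-likelihood test). Among the 19682 genes tested, 347 had a larger positive change.

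CXCL16 (ENSG00000161921; chromosome 17, 4733526 to 4739922, minus strand) is made as a membrane-bound chemokine that is cleaved to a soluble form, and it binds CXCR6. The shControl libraries held 2458, 2345 and 2369 counts and the shRNH1 libraries 3192, 2866 and 2910, which is 63.1, 56.7 and 64.3 against 94.1, 81.6 and 88.2 CPM. The groups did not overlap, as was the case for 40% of all genes tested, although the change was modest. It came to 1.43-fold (95% interval 1.25 to 1.64; log2 fold change 0.52, SE 0.0936; edgeR's quasi-likelihood test, adjusted p = 1.19e-04). CXCL16 shares 85 bases of exon, 3.04% of its exon length, with MED11 on the opposite strand, and without a stated strand setting reads from these bases cannot be told apart. No other member overlapped an exon of another gene in GENCODE 29.

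CXCL11 (I-TAC; ENSG00000169248; chromosome 4, 76033682 to 76041415, minus strand) and CXCL10 (IP-10; ENSG00000169245; chromosome 4, 76021117 to 76023497, minus strand) are interferon-inducible ligands of CXCR3. CXCL11 had 46, 28 and 31 counts in shControl and 138, 138 and 114 in shRNH1, which is 1.18, 0.677 and 0.841 CPM against 4.07, 3.93 and 3.46 CPM. The groups stood well apart at this low level. The change was 4.24-fold (95% interval 3.02 to 5.95; log2 fold change 2.08, SE 0.238; edgeR's quasi-likelihood test, adjusted p = 1.68e-07), the largest rise among the tested members. CXCL10 had 1, 8 and 3 counts in shControl and 6, 5 and 11 in shRNH1, so its groups overlapped. The summed counts of 12 and 22 gave a rate ratio of 2.10 with an exact 95% interval of 0.997 to 4.67, which covers counting error only. A difference in CXCL10 was thus not detectable at this depth. Whether its change differed from that of CXCL11 was not tested.

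CCRL2 (ENSG00000121797; chromosome 3, 46407163 to 46412997, plus strand) fell furthest. It had 538, 561 and 477 counts in shControl against 96, 72 and 120 in shRNH1, which is 13.8, 13.6 and 12.9 CPM against 2.83, 2.05 and 3.64 CPM. The shControl libraries were tightly grouped and every shRNH1 library was far below them. The log2 fold change of -2.25 (SE 0.160; edgeR's quasi-likelihood test, adjusted p = 3.83e-11) left 21.1% of the control level, with an interval of 0.168 to 0.265 for the fold. Only 39 of the 19682 genes tested had a more negative estimate.

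CXCL1, CXCL2 and CXCL3, paralogs on chromosome 4 with CXCL8, encode ligands of the neutrophil receptor CXCR2. CXCL2 (ENSG00000081041; 74097035 to 74099293, minus strand) had 247, 295 and 312 counts in shControl against 110, 139 and 98 in shRNH1, which is 6.34, 7.14 and 8.47 CPM against 3.24, 3.96 and 2.97 CPM. All 3 shRNH1 libraries lay below the shControl libraries. CXCL2 was left at 46.5% of its control level, a log2 fold change of -1.11 with an SE of 0.164 (edgeR's quasi-likelihood test, adjusted p = 9.57e-06). CXCL3 (ENSG00000163734; 74036589 to 74038807, minus strand) had 24, 41 and 31 counts in shControl and 22, 14 and 22 in shRNH1, so that the groups overlapped. A log2 fold change of -0.52 (SE 0.375) missed the threshold of edgeR's quasi-likelihood test (adjusted p = 0.338), and the interval of the fold, 0.410 to 1.19, includes both the fall seen in CXCL2 and no change.

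CXCL1 (ENSG00000163739; 73869393 to 73871242, plus strand), whose kappaB stretch is all but the same as those of CXCL2 and CXCL3, was listed at 0 in the 6 libraries. If its reads were counted, 0 allows at most 0.0726 to 0.0909 CPM per library (3 counts). Other genes of every cell, among them all 37 mitochondrially encoded ones, are also listed at 0 in this table, so a 0 is given only as listed. Paralogs can share reads: 4.81% of the 50-base words of CXCL1 transcripts occur in CXCL2 and 0.481% in CXCL3, and 8.99% of those of CXCL2 occur in CXCL3. CXCL8 (IL-8; ENSG00000169429; 73740506 to 73743716, plus strand), the best known neutrophil attractant, had 11, 9 and 2 counts in shControl and 4, 1 and 9 in shRNH1. The rate ratio of its summed counts (22 and 14) was 0.730, with an exact interval of 0.346 to 1.49. CCL20 (ENSG00000115009; chromosome 2, 227805739 to 227817564, plus strand), a CCR6 ligand of mucosal epithelium, had 1, 2 and 6 counts against 2, 0 and 0, a rate ratio of 0.255 (exact interval 0.0268 to 1.23). Neither CXCL8 nor CCL20 differed detectably at this depth, whether by these intervals or by edgeR without the minimum for low counts (adjusted p = 0.792 and 0.540).

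**Figure D2:**
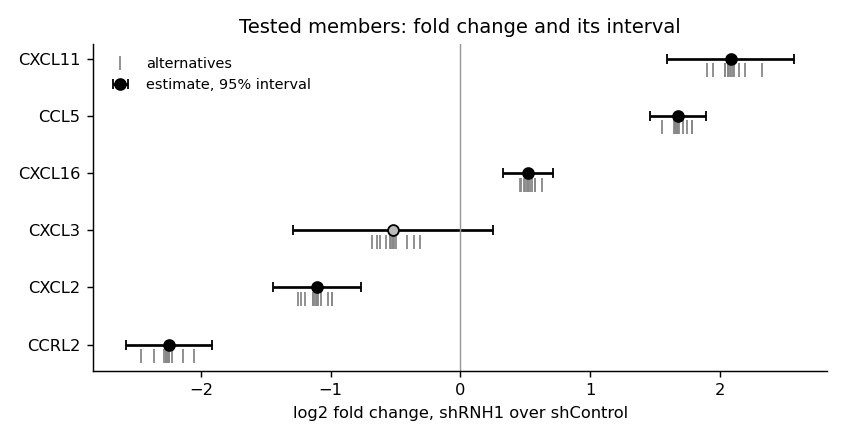
Log2 fold change, shRNH1 over shControl, of the 6 tested genes with 95% intervals (black points passed the test, grey did not), and below each the estimates under the alternative analyses (grey ticks). CXCL11, CCL5 and CXCL16 stay right of 0 and CXCL2 and CCRL2 left of 0 under every alternative shown, and the interval of CXCL3 spans 0.

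To compare genes with each other, levels were divided by the exon length of the gene in GENCODE 29. On this scale of CPM per kb, the order in shControl cells was CCL5 (32.6 ± 1.64), CXCL16 (22.0 ± 1.46), CXCL2 (4.88 ± 0.715), CCRL2 (4.39 ± 0.147), CXCL11 (0.472 ± 0.135) and CXCL3 (0.368 ± 0.0851), with CXCL10, CXCL8 and CCL20 each under 0.1 (SD, n = 3). CXCL2 and CCRL2 overlapped, as did CXCL11 and CXCL3. In shRNH1 cells CCL5 (104 ± 16.5) and CXCL16 (31.5 ± 2.24) still led, followed by CXCL2 (2.26 ± 0.340) and CXCL11 (2.00 ± 0.169), which now overlapped, and by CCRL2 (0.928 ± 0.259), CXCL3 (0.258 ± 0.0675) and CXCL10 (0.185 ± 0.0866), the last pair overlapping. Against the length-scaled levels of the 95.3% of tested genes that have a GENCODE length, CCL5 went from percentile 91.7 to 98.3, CXCL11 from 21.2 to 47.2, CXCL2 from 65.8 to 49.7 and CCRL2 from 63.8 to 32.2.

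**Figure D3:**
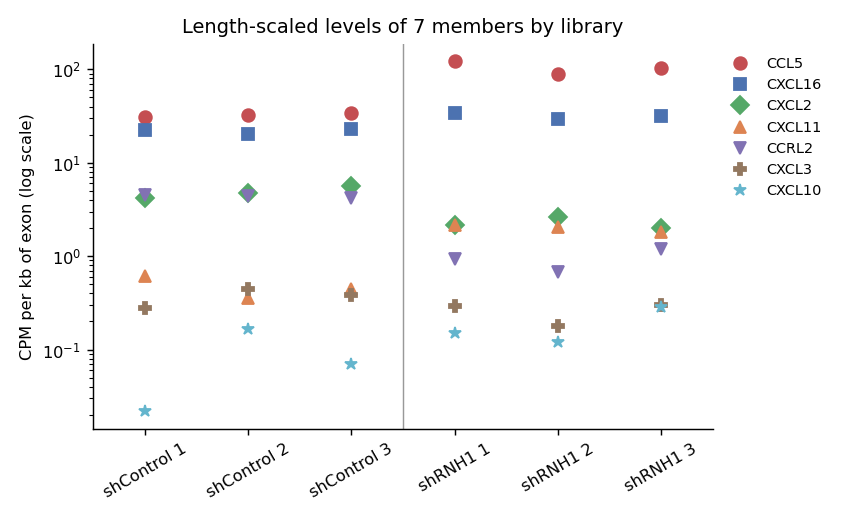
Level per kb of exon (CPM per kb, log axis) of 7 of the genes in each of the 6 libraries, shControl to the left of the line and shRNH1 to the right. CCL5 and CXCL16 lead in every library, CCRL2 lies beside CXCL2 in shControl and below CXCL2 and CXCL11 in shRNH1.

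The 9 chemokine genes summed to 60.5 ± 3.09 CPM per kb in shControl against 141 ± 18.7 in shRNH1 (mean ± SD of 3 libraries), 2.32 times as much, with no overlap. CCL5 and CXCL16 together made up 89.6% to 97.0% of this sum in each library. The share of CCL5 was 52.8%, 55.3% and 53.7% in shControl and 75.9%, 72.1% and 74.1% in shRNH1, that of CXCL16 was 36.3 ± 1.80% and 22.5 ± 1.38%, and that of CXCL2 was 8.04 ± 0.829% and 1.64 ± 0.442%. Because both leading genes rose, the ratio of CCL5 to CXCL16 per kb within a library, which no scaling between libraries can move, shows how unequal their changes were. It was 1.38, 1.59 and 1.50 in shControl and 3.61, 3.03 and 3.27 in shRNH1, a log2 difference of 1.15. The exact two-sided permutation test gave p = 0.1, which is as low as 3 against 3 libraries can go. The ratio of CXCL2 to CXCL3 was 13.6 ± 2.55 in shControl and 9.56 ± 4.46 in shRNH1, and it overlapped between groups (exact permutation p = 0.2).

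Among the other chemokine genes 4 rose and 1 fell. Of 37, 19 were listed at 0 and 7 were tested, but CCL28, CCL26 and CXCL17 met the minimum for low counts through the shRNH1 libraries alone and CCL3L3 through the shControl libraries alone, so these counts do not describe the family. CCL28, a mucosal epithelial chemokine that binds CCR10, had 15, 9 and 11 counts in shControl and 139, 107 and 107 in shRNH1. That was an 11.4-fold rise (95% interval 7.53 to 17.4, adjusted p = 6.79e-10, edgeR's quasi-likelihood test). It is not ranked against the other chemokine genes, because CCL28 was tested through the shRNH1 libraries alone. CCL22, a CCR4 ligand, rose from 2.84 ± 0.301 to 6.34 ± 2.04 CPM (2.22-fold) and CCL26, an eotaxin, from 0.392 ± 0.154 to 0.977 ± 0.190 CPM (2.48-fold). CXCL17 (log2 fold change 1.37), named after its values were seen, also rose, on 5 to 21 counts per library. CCL3L3, a multicopy relative of CCL3 whose reads can be shared with it, fell (-1.41, adjusted p = 0.0236, edgeR's quasi-likelihood test), but did not pass without shControl replicate 1 (-1.40), shControl replicate 2 (-1.40) or shRNH1 replicate 1 (-0.99). CCL26 did not pass without shRNH1 replicate 2 (1.14). Of the analyses that left out 1 library, CXCL17 passed in the one without shControl replicate 2 and in none of the others (1.14, 1.26, 1.21, 1.36 and 1.52 without shControl replicates 1 and 3 and shRNH1 replicates 1, 2 and 3), and it did not pass by DESeq2 (1.36).

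Of 25 genes for chemokine receptors and for chemerin and its receptors, 7 were tested, 3 rose (CXCR4, CCR10 and CMKLR2) and 1 fell. CMKLR2 met the minimum for low counts through the shRNH1 libraries alone and CXCR3 through the shControl libraries alone, so these counts do not describe the receptors. Over all genes tested, 27.6% passed. CXCR4, the CXCL12 receptor, had 73, 69 and 58 counts in shControl and 160, 124 and 129 in shRNH1, a 2.37-fold rise (adjusted p = 3.20e-05, edgeR's quasi-likelihood test). CCR10, a receptor for CCL28, rose from 0.798 ± 0.329 to 2.06 ± 0.220 CPM (log2 fold change 1.38). No common or opposite direction is drawn for the chemerin genes, because CMKLR2 was tested through the shRNH1 libraries alone. RARRES2, which encodes chemerin, had 142, 149 and 124 counts in shControl and 86, 93 and 54 in shRNH1. It fell (-0.64, adjusted p = 0.0209, edgeR's quasi-likelihood test). The chemerin receptor gene CMKLR2 rose on few counts (10, 13 and 12 against 32, 21 and 36; log2 fold change 1.54), and CMKLR1 was listed at 0. RARRES2 did not pass with library size alone (-0.53), without shControl replicate 1 (-0.62) or without shRNH1 replicate 3 (-0.45). Receptors of the members' own ligands, picked after their values were seen, did not pass: CXCR6, which binds CXCL16, had a log2 fold change of -0.27 (adjusted p = 0.414) and CXCR3, which binds CXCL10 and CXCL11, one of -1.12 on 3 to 21 counts (adjusted p = 0.115; edgeR's quasi-likelihood test). CXCR2, the receptor of CXCL1, CXCL2, CXCL3 and CXCL8, was listed at 0.

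NF-kB subunit and inhibitor genes mostly fell. Of 20, all tested, 14 fell and 1 rose, and their median change was -0.42 on the log2 scale. The share that passed was 75%, against 27.6% of all genes tested, of which 15.3% were higher and 12.3% lower. The kinase gene MAP3K14 (NIK), which drives the noncanonical pathway, fell from 163 ± 8.55 to 71.5 ± 2.14 CPM, the subunit genes NFKB2 from 201 ± 22.8 to 94.9 ± 4.26 CPM and RELB from 42.2 ± 3.06 to 20.3 ± 0.390 CPM, and the adaptor gene TRAF2 from 119 ± 5.06 to 75.1 ± 3.04 CPM (SD, n = 3 each). Their log2 fold changes were -1.19, -1.08, -1.05 and -0.66. NFKBIZ, an atypical inhibitor named after its values were seen, was the 1 that rose (0.45, adjusted p = 0.0218, edgeR's quasi-likelihood test). It did not pass by DESeq2 (0.43), with the expression level offset (0.34), or without shControl replicate 1 (0.33), shControl replicate 2 (0.38), shRNH1 replicate 1 (0.48) or shRNH1 replicate 2 (0.41).

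Among 20 genes of inflammatory cytokines and their receptors, 11 were tested, 4 fell and 0 rose in edgeR's quasi-likelihood test. The share of tested genes that passed was 36.4%, not far from the 27.6% of all genes tested. At an unadjusted p below 0.05 again 0 were higher, and DESeq2 and limma-voom found 0 higher as well. LTBR (-0.52), the lymphotoxin receptor that feeds the noncanonical NF-kB pathway, the kinase gene IRAK1 (-0.56), the IL-1 receptor subunit gene IL1RAP (-0.48) and IL18 (-0.50) were the 4. Interferon receptor, JAK, STAT and IRF genes leaned the other way, with 8 of 18 higher, 1 lower and a median of 0.27. The share that passed was 50%, and over all genes tested 15.3% were higher and 12.3% lower. IRF9, the DNA-binding partner of STAT proteins, rose from 2.61 ± 0.541 to 5.80 ± 0.324 CPM (log2 fold change 1.15), and IRF7 (0.55), the receptor gene IFNAR1 (0.39) and IRF2 (0.39) rose by less. The 1 that fell was SOCS3 (-0.34), a feedback inhibitor named after its values were seen. The number higher was 5 without shControl replicate 2, 4 without shControl replicate 3, 5 without shRNH1 replicate 1 and 4 by DESeq2. SOCS3 did not pass without shRNH1 replicate 3 (-0.29) or with library size alone (-0.22).

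Genes that act on chemokines after transcription passed the test in both directions, 31.2% of the tested decay regulators and 40% of the tested proteases against 27.6% of all genes tested. Of 16 regulators of chemokine mRNA decay 1 rose, ZFP36 (0.36), the protein that brings AU-rich mRNAs to decay, and 4 fell, among them the decapping enzyme gene DCP2 (-0.35), ZC3H12C (-0.35) and ZFP36L2 (-0.34). With library size alone 0 of the 16 fell by edgeR's test, and the number that fell was 2 without shControl replicate 1, 2 without shControl replicate 2, 1 without shRNH1 replicate 1 and 2 without shRNH1 replicate 2. Of 12 proteases that shed or trim chemokines 10 were tested, 3 rose and 1 fell. The collagenase gene MMP1 rose from 4.02 ± 0.409 to 8.48 ± 0.712 CPM (1.07), ADAM10, which sheds CXCL16, rose 1.26-fold (0.33), CTSC rose (0.30) and the urokinase gene PLAU fell (-0.43). MMP1 was the 1 that still rose without shControl replicate 3, shRNH1 replicate 1 or shRNH1 replicate 3, where ADAM10 (0.26, 0.34 and 0.26) and CTSC (0.23, 0.27 and 0.23) did not pass. ADAM10 also missed without shControl replicate 2 (0.31), and PLAU without shControl replicate 1 (-0.47), 2 (-0.44) or 3 (-0.40) or shRNH1 replicate 2 (-0.30) or 1 (-0.49).

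**Figure D4:**
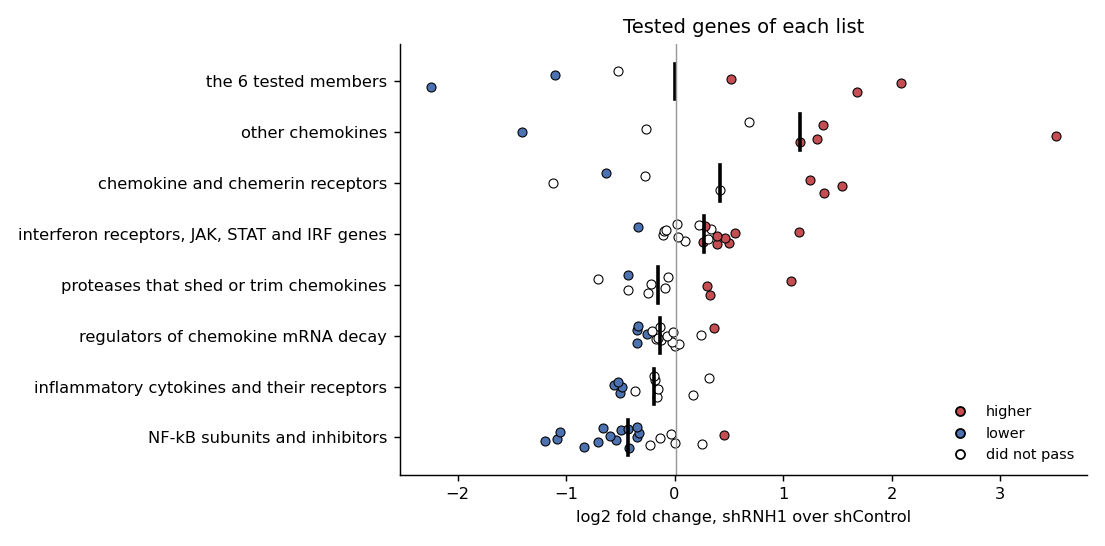
Log2 fold change of each tested gene in the 6 members and 7 related gene lists (red rose, blue fell, white did not pass; black bars are list medians, the grey line is the median of all genes tested). NF-kB genes sit mostly left of 0, at a median of -0.42, interferon pathway genes mostly right of it, at 0.27, and the members on both sides.

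Likeness over the 6 libraries was measured for CCRL2 and CCL5 alone, among genes whose log2 CPM averaged 2 or more. The 3 genes most like CCRL2 by Pearson's r of log2 CPM were URM1 (0.999), PDP1 (0.998) and IL7R (0.996), and those most like CCL5 were TBXA2R, GGA2 and FYTTD1 (0.9996, 0.999 and 0.999). These r describe 6 libraries that share the split between groups. Of 11191 genes compared, 5.31% had an r above 0.95 with CCRL2 and 6.64% with CCL5.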

How the data were processed

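Each deposited file value is a raw count per gene, a whole number that the authors had not normalised, for 62700 Ensembl IDs in 6 libraries; 0 value columns were left unmatched. HISAT2, StringTie, DESeq2 and the build GRCh38 are named, per the submitters' processing notes, and the sources used here do not give versions, roles, annotation release or strand setting. Reads of overlapping genes or close paralogs may be shared. All 62700 IDs had a symbol; positions and exon lengths (union of all isoforms, which changes levels per kb) came from GENCODE 29, upstream sequence from RefSeq (GRCh38.p14).

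The main test was edgeR 4.0.16 in R 4.3.3 (quasi-likelihood, TMM, filterByExpr by group with a minimum count of 10, no covariate, Benjamini-Hochberg over 19682 genes), with standard errors from the F statistic; it was tested on simulated data. Alternatives were library size alone or DESeq2 size factors in place of TMM, the tools DESeq2 1.42.0 and limma-voom (limma 3.58.1), no filter or a strict one (1 CPM in 3 libraries), a block for the replicate number, an expression level offset (MASS 7.3.60.0.1) and each replicate left out. The ratios of members were added after seeing the data. CPM use TMM. Exact intervals of count ratios and floors of 3 counts cover counting error only. The labels say biological replicates but not how cultures were kept apart, so a p-value reflects only the spread of these libraries, which may be technical. Within groups, libraries differed by more than sampling noise (chi-square 5.90 to 18.5 per gene), so each was counted once.

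The members and lists were chosen with earlier results of these data known. Named genes were the 10 members, RNASEH1 and RNH1, up to 4 genes with the smallest adjusted p past the threshold per list, and the 3 genes with mean log2 CPM of at least 2 most correlated with CCRL2 and CCL5.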

Additional observations from a re-analysis of the deposited data

How the results depend on the processing

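The 3 rises (CCL5, CXCL11, CXCL16) and 2 falls (CCRL2, CXCL2) among the members kept their direction and passed under each of the 14 alternatives, and CXCL3 passed under none of its 13 (strict low-count filter: not tested). Log2 fold changes ranged from 1.56 to 1.79 for CCL5, 1.90 to 2.33 for CXCL11, 0.46 to 0.63 for CXCL16, -1.25 to -0.99 for CXCL2, -2.46 to -2.05 for CCRL2 and -0.68 to -0.31 for CXCL3. Leaving out 1 library moved the log2 difference in the ratio of CCL5 to CXCL16 between 1.08 and 1.21. Library size alone moved the median of all genes to 0.127 and gave 4065 higher and 1433 lower, against 3006 and 2418 with TMM. Same-numbered libraries had correlations of deviations of 0.0429, -0.139 and -0.447, and differently numbered ones from -0.430 to 0.493. No pairing by replicate number was seen, but 3 libraries per group cannot exclude one. With the replicate block CCL5 had a log2 fold change of 1.67 and CCRL2 one of -2.26, 2938 genes were higher and 2156 lower, and no member changed its call. Counts of list genes moved more, on small numbers. The cause was not tested, other than that the strict filter tests fewer genes: with it 2 other chemokines were higher and 0 lower, and 2 proteases lower. With library size alone, 0 chemokine and chemerin receptors, 0 interferon pathway genes, 0 mRNA decay regulators and 0 proteases were lower by edgeR's test, and 2 NF-kB genes higher. By DESeq2, 0 NF-kB genes and 4 interferon pathway genes were higher. With no filter, 2 receptors were lower and 5 interferon pathway genes higher. With the expression level offset 0 NF-kB genes were higher and 2 decay regulators lower, and with DESeq2 size factors 2 proteases were lower. Over the analyses that left out 1 library, 0 to 1 other chemokines, 0 to 1 receptors, 0 to 1 interferon pathway genes, 1 to 3 decay regulators and 0 to 1 proteases were lower, and 0 to 1 NF-kB genes, 4 to 6 interferon pathway genes and 1 to 3 proteases higher. Of 666 alternative values of the 48 other named genes, 56 no longer passed and 0 turned direction. Depth limits CXCL8, CXCL10 and CCL20, which had at most 11 counts per library.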
